A study of Mus musculus with 8 samples.

Results

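Guanylate-binding proteins (GBPs) and immunity-related GTPases (IRGs) are large GTPases that cells make after exposure to interferons. They were followed here in XCR1+ dendritic cells of the mouse spleen that mature without infection. The set was defined by gene name as Gbp2, Gbp3, Gbp5, Gbp6, Gbp7, Irgm1, Irgm2, Igtp, Iigp1 and Ifi47, and a gene entered through array rows annotated to that symbol alone. This left 5 of the 10 genes, Gbp3, Gbp5, Gbp7, Irgm1 and Iigp1, with 1 row each, out of 19938 genes with such a row. Gbp2, Gbp6, Irgm2, Igtp and Ifi47 lay only on rows annotated to several genes and were not analysed here. The row of Gbp6 also lists Gbp4, Gbp8, Gbp9, Gbp10 and Gbp11, and Irgm2 and Igtp share 1 row. On these shared rows the array's annotation does not separate the genes. Gbp4, Gbp8, Gbp9 and Gbp11 also have rows of their own, which are used below.

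Each of 8 arrays carried RNA of 1 sorted sample from untreated mice in which yellow fluorescent protein reports Il12b. All samples were spleen cells without lineage markers, with no or low BST2, high CD11c and CD8α. Immature cells (n = 3) lacked both CCR7, the chemokine receptor gained on maturation, and the reporter. Homeostatically matured cells carried CCR7 and were split into those without reporter, CCR7+Il12b- (n = 3), and those with it, CCR7+Il12b+ (n = 2). No age is stated for the mice, nor how many went into a sample, and the reporter marks Il12b transcription, not secreted protein. In such sorted bulk samples, fewer cells expressing a gene and less RNA per cell cannot be told apart.

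Interferon gamma signals through the receptor chains IFNGR1 and IFNGR2 and the kinases JAK1 and JAK2, and IRF1 is among the factors made next. Promoters of GBP and IRG genes carry gamma-activated sites (GAS) and interferon-stimulated response elements (ISRE), and IRF proteins bind the latter. Many of these GTPases attack the membranes around intracellular parasites and bacteria. The IRGM proteins, Irgm1 among them, keep the other IRGs inactive on the cell's own membranes.

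The upstream sequences of 4 analysed genes are shown because GBP and IRG genes are textbook targets of ISRE and GAS elements while their levels below went different ways. Each is the 250 bases before an annotated RefSeq transcription start on GRCm38.p6, written 5′ to 3′ on the gene's strand, and capitals mark matches on either strand to GAAANNGAAA (ISRE-like) or TTCNNNGAA (GAS-like).
Gbp5, chr3:142496684-142496933, plus strand: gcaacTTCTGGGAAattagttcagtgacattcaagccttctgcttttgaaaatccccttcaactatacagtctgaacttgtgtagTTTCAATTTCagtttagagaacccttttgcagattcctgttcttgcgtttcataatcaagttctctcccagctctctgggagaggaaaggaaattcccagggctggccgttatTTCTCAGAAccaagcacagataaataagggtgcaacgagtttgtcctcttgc
Gbp7, chr3:142530086-142530335, plus strand: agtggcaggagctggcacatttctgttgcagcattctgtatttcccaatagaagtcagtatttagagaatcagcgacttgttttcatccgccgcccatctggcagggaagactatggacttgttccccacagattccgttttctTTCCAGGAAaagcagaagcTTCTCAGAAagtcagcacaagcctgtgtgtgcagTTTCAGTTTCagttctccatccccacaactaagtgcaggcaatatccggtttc
Gbp3, chr3:142559794-142560043, plus strand: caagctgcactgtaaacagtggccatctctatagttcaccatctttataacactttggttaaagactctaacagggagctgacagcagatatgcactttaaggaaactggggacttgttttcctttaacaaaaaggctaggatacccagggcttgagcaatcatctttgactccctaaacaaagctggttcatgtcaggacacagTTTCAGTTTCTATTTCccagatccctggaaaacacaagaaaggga
Irgm1, chr11:48871421-48871670, minus strand: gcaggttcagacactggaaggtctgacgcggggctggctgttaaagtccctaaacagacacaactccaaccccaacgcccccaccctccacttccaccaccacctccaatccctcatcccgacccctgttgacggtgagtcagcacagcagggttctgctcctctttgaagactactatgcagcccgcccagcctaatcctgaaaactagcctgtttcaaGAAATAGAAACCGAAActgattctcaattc

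All 4 windows held an ISRE-like match, which 2.98% of 32851 RefSeq windows of this length held. Gbp5 and Gbp7 also had 2 GAS-like matches each, and 7.02% of all windows had at least 1 and 0.332% held both motifs. The ISRE-like match of Gbp5 lay far from its start, from -165 to -156, with a GAS-like match at -52 to -44. In Gbp7 the ISRE-like match lay at -53 to -44 and the GAS-like matches at -106 to -98 and -87 to -79. Gbp3 had a pair of overlapping ISRE-like matches from -45 to -30, and a second annotated start of Gbp3 had neither motif in its window. Irgm1 likewise had an overlapping pair, from -30 to -15. The fifth analysed gene, Iigp1, was not scanned. Among genes not analysed for expression, the windows of Gbp2, Irgm2 and Igtp held an ISRE-like match. Those of Irgm2 and Igtp also held a GAS-like match, and that of Ifi47 held neither motif. A match is a run of letters and not evidence of binding. The TTCNNNGAA pattern reads the same on both strands and was counted once.

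**Figure D1:**
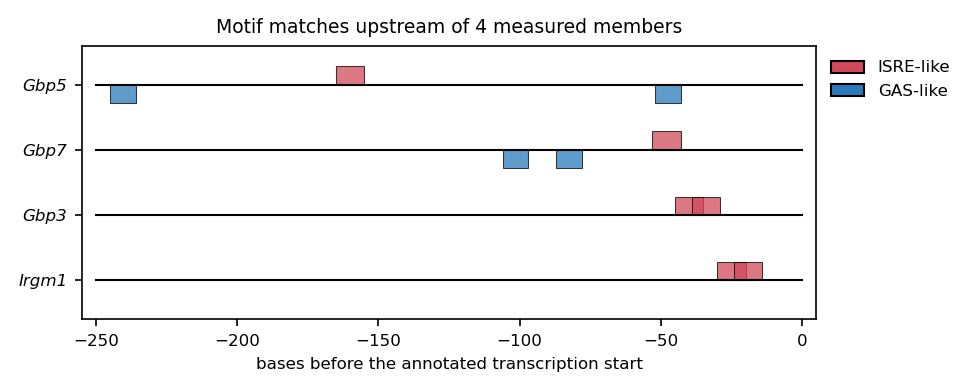
Positions of motif matches in the 250 bases before the annotated start of 4 genes, with bases before the start on the x axis, ISRE-like matches drawn above each line and GAS-like matches below it. Gbp5 and Gbp7 carry both kinds, whereas Gbp3 and Irgm1 carry an overlapping ISRE-like pair close to the start.

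The sort and the cell identity were looked at first. Ccr7 was 3.59 and 3.97 log2 units higher in CCR7+Il12b- and CCR7+Il12b+ cells than in immature cells, and Il12b was 3.78 and 5.26 higher, which the sort itself favours. Xcr1 differed by -1.36 and -3.02, and in CCR7+Il12b+ cells Itgax, which encodes CD11c, differed by -0.97 and Cd8a by -0.31, although all samples were sorted for CD11c and CD8α protein. All 12 XCR1+ dendritic cell markers examined lay above the background mark in all 3 groups. This mark, 4.98 on the log2 scale, is the 95th percentile of the mean levels of 1194 olfactory and vomeronasal receptor genes, which these cells are not known to use. Summed on the linear scale, the 12 markers ran from 18396 to 20036 in immature, 11614 to 14401 in CCR7+Il12b- and 7935 to 9250 in CCR7+Il12b+ samples, and 6 of them were lower and 1 higher in CCR7+Il12b- cells and 9 lower and 1 higher in CCR7+Il12b+ cells than in immature cells. The 6 B cell markers measured summed to 280 to 348, 547 to 736 and 403 to 430, with 4 of 6 above the mark in each group, and the 6 T cell markers to 208 to 223, 215 to 242 and 166 to 187, with 2, 3 and 3 above it. The 10 monocyte and macrophage markers summed to 1959 to 2182, 2509 to 3116 and 2440 to 2743, with 6, 8 and 6 above the mark. Within that list Spic rose by 3.15 ± 0.22 and 3.07 ± 0.24 and Vcam1 by 2.57 ± 0.17 and 3.17 ± 0.19 against immature cells, while Lyz2 fell by 1.45 ± 0.26 and 3.11 ± 0.29. Plasmacytoid markers (6 genes, of which 6, 6 and 5 were above it) summed to 999 to 1209, 696 to 784 and 676 to 687, and CD11b+ dendritic cell markers (7 genes; 4, 4 and 3) to 377 to 570, 642 to 729 and 448 to 452. Of 6 NK cell markers 1, Prf1, lay above the mark in each group. Neutrophil markers (7 genes) had 2, 4 and 3 above it and erythroid markers (3 genes) 2, 3 and 3. The sums of these 3 lists all lay below 219. Erythroid sums were 103 to 110 in immature, 138 to 155 in CCR7+Il12b- and 138 to 143 in CCR7+Il12b+ samples. The haemoglobin genes Hbb-bt and Hba-a1 had no row of their own. The part of all these other cell types in the results below was not tested. Per the labels, 3 or 20 ng of RNA were amplified, without a statement of which sample had which amount, and the part of that amount in the results was not tested.

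Values are log2 expression values, 1 unit being a 2-fold difference, and each row's level can be compared between samples but not with another row's. A difference passed the test at an adjusted p under 0.05 in limma, with p-values from all 19938 genes. The analysed genes took different courses on maturation. Gbp5 and Gbp3 were higher in both matured fractions, Iigp1 was higher in CCR7+Il12b- cells, and Irgm1 was lower in CCR7+Il12b+ cells. Gbp7 stayed below the background mark in every sample.

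Gbp5, known for promoting NLRP3 inflammasome assembly, had the widest range. Its level was 5.33, 5.64 and 5.70 in the immature samples, 9.02, 9.02 and 9.18 in the CCR7+Il12b- samples and 9.48 and 9.46 in the CCR7+Il12b+ samples. The groups did not overlap, and every sample of both matured fractions lay more than 3 units above every immature one. Gbp5 rose 11.4-fold in CCR7+Il12b- cells (log2 difference 3.52 ± 0.12 SE, n = 3 against 3, adjusted p = 2.64e-08 in limma). The rise was 15.1-fold in CCR7+Il12b+ cells (3.91 ± 0.13, n = 2 against 3, adjusted p = 1.80e-08). Between the matured fractions the difference was 0.40 ± 0.13, with a 95% interval of 0.10 to 0.69 that is not adjusted for the number of genes, and it did not pass (adjusted p = 0.120).

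Gbp3, a GBP whose gene lies next to Gbp7, crossed the background mark. It was measured at 4.48, 4.70 and 4.61 in immature, 5.42, 5.41 and 5.32 in CCR7+Il12b- and 5.48 and 5.68 in CCR7+Il12b+ samples. All 3 immature values lay under the background mark and all 5 matured values over it. As measured, Gbp3 was higher by 0.79 ± 0.11 (adjusted p = 0.000351, limma) and 0.98 ± 0.12 (adjusted p = 7.26e-05). With the mark standing in for the immature level, the rise was at least 1.32-fold in CCR7+Il12b- and at least 1.52-fold in CCR7+Il12b+ cells. The matured fractions differed by 0.20 ± 0.12 (95% interval -0.06 to 0.46, adjusted p = 0.448).

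Gbp7, which has been tied to the assembly of the NADPH oxidase on phagosomes, gave 4.28, 4.34 and 4.14 in immature samples. It gave 4.40, 4.43 and 4.53 in CCR7+Il12b- and 4.53 and 4.53 in CCR7+Il12b+ samples. None of the 8 values reached the mark, so no fold is given. The differences from immature cells were 0.20 ± 0.10 (95% interval -0.02 to 0.42, adjusted p = 0.197) and 0.28 ± 0.11 (0.02 to 0.53, adjusted p = 0.0909). Olfactory and vomeronasal receptor genes had medians of 0.10 in both comparisons.

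Irgm1, the regulatory IRG, was lower in CCR7+Il12b+ cells than in both other groups. Its level was 7.03, 7.37 and 7.50 in immature, 7.26, 7.64 and 7.12 in CCR7+Il12b- and 6.06 and 6.18 in CCR7+Il12b+ samples. Immature and CCR7+Il12b- values were interleaved, and both CCR7+Il12b+ values lay below the other 6. Irgm1 fell 2.27-fold in CCR7+Il12b+ against immature cells (-1.18 ± 0.18, adjusted p = 0.000330, limma) and 2.34-fold against CCR7+Il12b- cells (-1.22 ± 0.18, adjusted p = 0.00194). The difference between CCR7+Il12b- and immature cells was 0.04 ± 0.16, with a 95% interval of -0.30 to 0.39 (adjusted p = 0.875). The interval leaves room for a change of up to 0.39 units in that step.

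Iigp1, an effector IRG also called Irga6 that coats the vacuoles of parasites, was highest in the middle fraction. It was at 4.87, 5.13 and 4.92 in immature samples, 5.60, 5.74 and 5.83 in CCR7+Il12b- samples and 5.07 and 4.81 in CCR7+Il12b+ samples. The CCR7+Il12b- values stood apart from the other groups, which overlapped each other around the mark. As measured, the rise in CCR7+Il12b- cells was 0.75 ± 0.12 (adjusted p = 0.00101, limma), or at least 1.62-fold against the mark. From CCR7+Il12b- to CCR7+Il12b+ cells Iigp1 fell by 0.78 ± 0.13 on the log2 scale (adjusted p = 0.00565), or at least 1.62-fold. CCR7+Il12b+ and immature cells differed by -0.03 ± 0.13 (95% interval -0.33 to 0.26, adjusted p = 0.867). The summed B cell markers and the summed CD11b+ dendritic cell markers were also highest in the CCR7+Il12b- samples, as given above. The part of either cell type in the Iigp1 values was not tested.

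**Figure D2:**
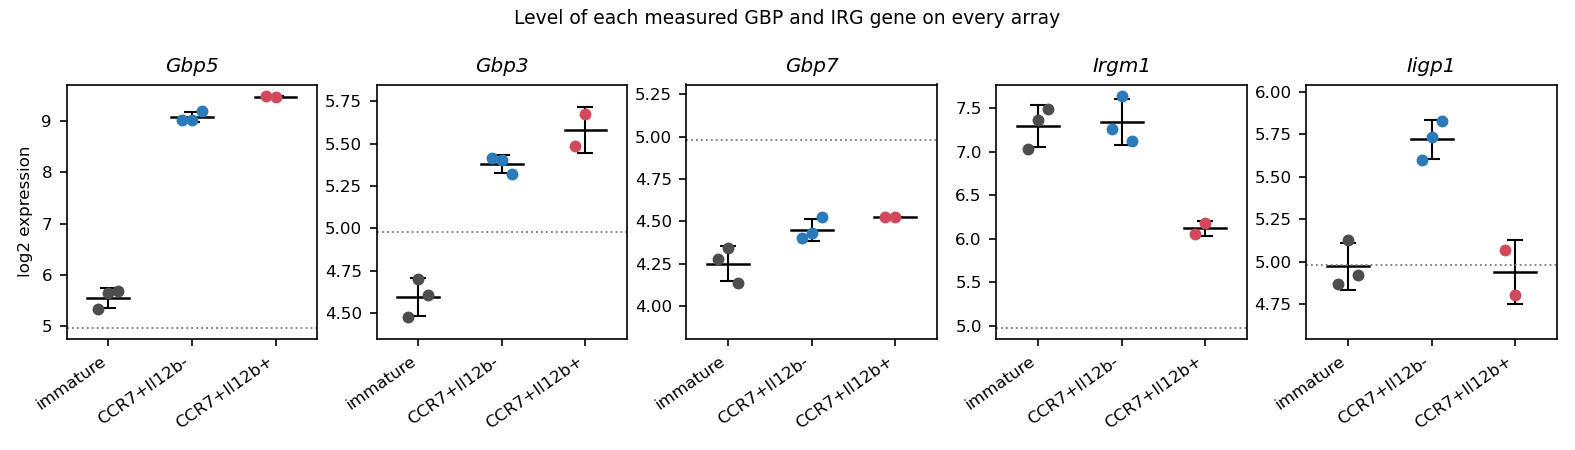
Log2 expression of Gbp5, Gbp3, Gbp7, Irgm1 and Iigp1 (y axis, a separate scale for each gene) in immature, CCR7+Il12b- and CCR7+Il12b+ samples, with 1 point per array, bars at the group mean and SD, and a dotted line at the background mark of 4.98. Gbp5 rises from below 6 to above 9, Irgm1 drops in CCR7+Il12b+ samples alone, and Iigp1 peaks in CCR7+Il12b- samples.

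The counts were read against all genes. In CCR7+Il12b- against immature cells 3 of the 5 analysed genes were higher and 2 did not pass. Of all genes 9.10% were higher and 14.5% lower. In CCR7+Il12b+ against immature cells 2 were higher and 1, Irgm1, was lower, where 14.1% of all genes were higher and 17.9% lower. Between CCR7+Il12b+ and CCR7+Il12b- cells 2 were lower, Irgm1 and Iigp1, where 2.61% of all genes were higher and 4.47% lower. The sample values did not overlap for 4, 4 and 5 of the 5 genes in these comparisons, against 41.3%, 57.1% and 29.6% of all genes. The median log2 difference of the 5 genes was 0.75, 0.28 and 0.08, and that of all genes 0.06, 0.09 and 0.02. The first 2 comparisons share the immature samples. With 5 genes, 4 of them with a group mean above the mark, these counts describe single genes more than a family.

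CCR7+Il12b- replicate 3 lay nearer to the CCR7+Il12b+ mean than its 2 companions for Ifngr1 and Irf1 below. Among the XCR1+ dendritic cell markers this also held for Xcr1, Clec9a, Tlr3, Itgae, Cd8a, Cadm1, Batf3, Irf8 and Naaa. It did not hold for Itgax, Flt3 and Zbtb46. Without this replicate the CCR7+Il12b- differences from immature cells were 3.46 for Gbp5, 0.82 for Gbp3, 0.70 for Iigp1 and 0.15 for Irgm1. The 2 differences between the matured fractions that passed became -1.33 for Irgm1 and -0.73 for Iigp1 (adjusted p = 0.00150 and 0.0117, limma). No call of the 5 genes changed. That sample had the lowest Irgm1 of its group but also the highest Iigp1, so it was not nearer to the CCR7+Il12b+ samples for both.

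Across the 8 arrays, as a description in which group differences and shared arrays enter, Gbp3 followed Gbp5 most closely (Pearson r = 0.98). Irgm1 ran against the 3 GBPs, with r from -0.60 to -0.46, and r between Irgm1 and Iigp1 was 0.46. Gbp5 had the widest spread of group means, 3.91 units. Of 2610 genes outside the set whose group means spanned at least 1 unit with 1 of them above the mark, those most like Gbp5 over the 8 arrays were Cd63, a tetraspanin (r = 0.9997), H2-M2, a non-classical class I gene (0.9993), Gbp8 (0.9991), Ccl5, a chemokine (0.9990), and Tmem123 (0.9990). Of the 2610 genes 473 had r above 0.95.

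Relatives outside the set were read from a list of 22 other GBP, IRG and very large inducible GTPase genes, of which 12 had a row of their own and 7 a group mean above the mark. In CCR7+Il12b- against immature cells 5 of 12 were higher (3 to 7 under the alternatives, in part because a filter on dim genes removes Gbp2b and Gbp11). In CCR7+Il12b+ cells 6 were higher and 2 lower (4 to 6 and 2), and between the matured fractions 2 were lower (2 to 3). Their median differences were 0.34, 0.25 and 0.04. For all genes the shares higher and lower were 9.10% and 14.5%, 14.1% and 17.9%, and 2.61% and 4.47% in these comparisons.

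Gbp4, Gbp8 and Gbp9, a run of adjacent genes on chromosome 5, rose in both matured fractions as well. Gbp4 was at 7.40, 7.20 and 7.36 in immature, 10.47, 10.64 and 10.93 in CCR7+Il12b- and 11.21 and 11.21 in CCR7+Il12b+ samples. It rose 10.3-fold and 14.8-fold (3.36 ± 0.13 and 3.89 ± 0.14). Gbp8 rose 8.43-fold and 10.2-fold and Gbp9 6.19-fold and 8.53-fold, all with adjusted p of 3.81e-07 or lower in limma. Gbp4 differed between the matured fractions by 0.53 ± 0.14 at an adjusted p of 0.0505. It passed with either filter on dim genes, with the mean of a gene's rows and with the replicate block (adjusted p from 0.0439 to 0.0496). Leaving out CCR7+Il12b- replicate 3 made it pass too (0.66, adjusted p = 0.0104), and Gbp9 as well (0.60, adjusted p = 0.0314). Gbp4, Gbp8 and Gbp9 are also annotated on the row with Gbp6, and whether their own rows share signal was not tested. Gbp2b and Gbp11 differed from immature cells by 0.74 and 0.90 in CCR7+Il12b- cells but stayed below the mark in each group mean.

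Among the relatives, Gm12185 and Gm1966 had the course of Irgm1. Gm1966, of the very large inducible GTPases, was at 7.81, 8.21 and 7.94 in immature and 7.88, 7.99 and 7.96 in CCR7+Il12b- samples. It was at 6.36 and 6.84 in CCR7+Il12b+ samples, below all others. It fell 2.62-fold against immature cells (-1.39 ± 0.16, adjusted p = 5.33e-05, limma) and 2.54-fold against CCR7+Il12b- cells (-1.35 ± 0.16, adjusted p = 0.000819). Gm12185, which lies on chromosome 11 with 1 coding gene, Gm5431, between it and Irgm1, went from means of 5.05 and 5.14 to 4.01, and since the last lies under the mark its fall was at least 1.05-fold and 1.12-fold (adjusted p = 7.11e-05 and 0.000576). Gm12250, the gene of Irgb10, stayed below the mark, with means of 4.51, 4.80 and 4.61. On chromosome 3 Gbp5, Gbp7, Gbp3, Gbp2b and Gbp2 follow one another as coding genes. There Gbp5 rose 11.4-fold in CCR7+Il12b- cells and its neighbour Gbp7 stayed below the mark. With no fold given for Gbp7, the sizes of their changes cannot be compared.

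**Figure D3:**
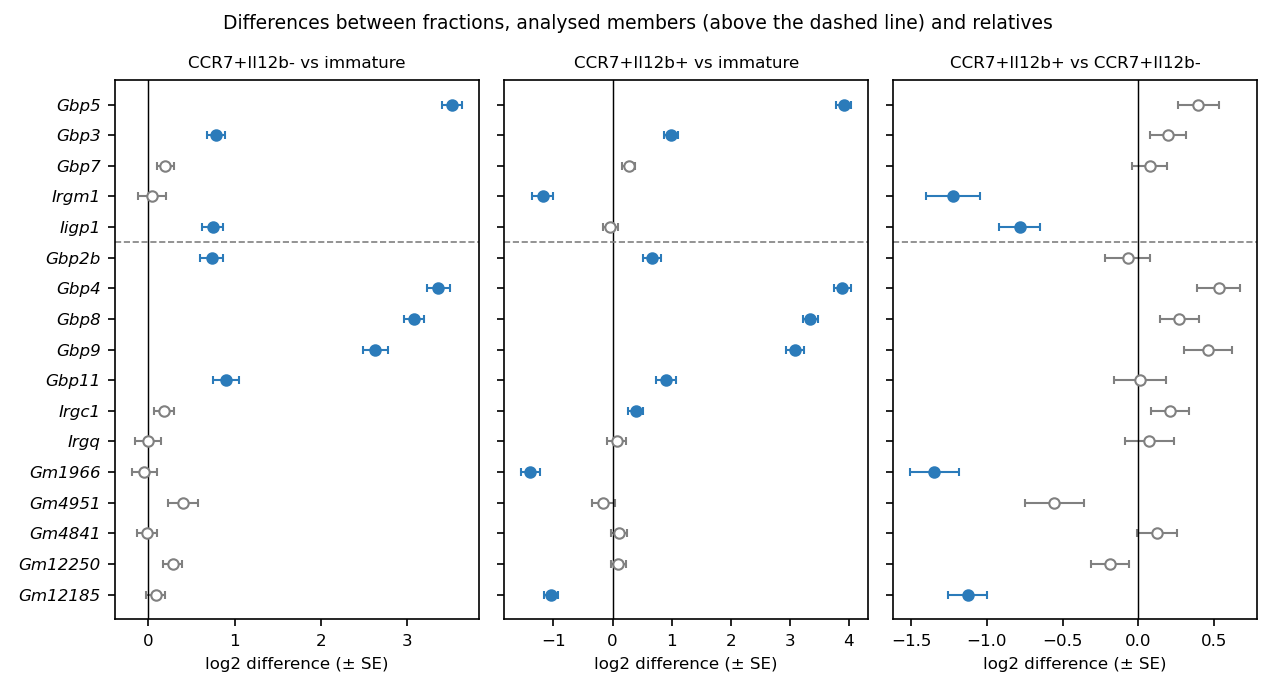
Log2 differences with SE (x axes) for the 5 analysed genes, above the dashed line, and the 12 measured relatives below it, in the 3 comparisons; filled blue points passed the test and open grey points did not. Gbp5, Gbp4, Gbp8 and Gbp9 sit between 2.63 and 3.91 in both comparisons with immature cells, and Irgm1, Iigp1, Gm1966 and Gm12185 are on the lower side between the matured fractions.

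The interferon gamma route was measured in the same samples. Of its 11 measured genes, in CCR7+Il12b- against immature cells 3 were higher and 2 lower, and in CCR7+Il12b+ cells again 3 and 2. Between the matured fractions 1 was higher and 1 lower. Median differences were 0.20, 0.20 and -0.10 in this order. The shares of all genes higher and lower were 9.10% and 14.5%, 14.1% and 17.9%, and 2.61% and 4.47%. Ifngr1, the ligand-binding receptor chain, was at 11.01, 11.06 and 11.03 in immature, 9.91, 9.90 and 9.10 in CCR7+Il12b- and 7.87 and 7.80 in CCR7+Il12b+ samples. No groups overlapped, and it fell by 1.40 ± 0.19 and 3.20 ± 0.21 on the log2 scale against immature cells (adjusted p = 0.000317 and 8.27e-07) and by 1.80 ± 0.21 between the matured fractions (0.000681). Ifngr2, the other chain, differed by -0.01 ± 0.12 and 0.04 ± 0.13 from immature cells.

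Irf1, the transcription factor that binds ISRE sequences, went the other way. It was at 9.08, 8.80 and 8.74 in immature, 10.47, 10.49 and 10.78 in CCR7+Il12b- and 11.80 and 11.26 in CCR7+Il12b+ samples. It rose by 1.71 ± 0.16 and 2.66 ± 0.18 against immature cells (adjusted p = 2.46e-05 and 9.68e-07). The step between the matured fractions, 0.94 ± 0.18 (adjusted p = 0.00919), did not pass without CCR7+Il12b+ replicate 1 (0.67, adjusted p = 0.0866). Jak2 rose by 1.05 ± 0.11 and 0.95 ± 0.12, and Jak1 differed by 0.32 ± 0.11 (adjusted p = 0.0538, and 0.0263 with cyclic loess scaling) and 0.16 ± 0.12. Irf8 fell by 0.96 ± 0.17 and 1.23 ± 0.19. Ifng itself was near the mark, with group means of 4.84, 5.22 and 5.05, and did not pass in any comparison, though its difference between CCR7+Il12b- and immature cells passed without CCR7+Il12b- replicate 1 (0.48, adjusted p = 0.0331) and with array weights (0.37, adjusted p = 0.0175).

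**Figure D4:**
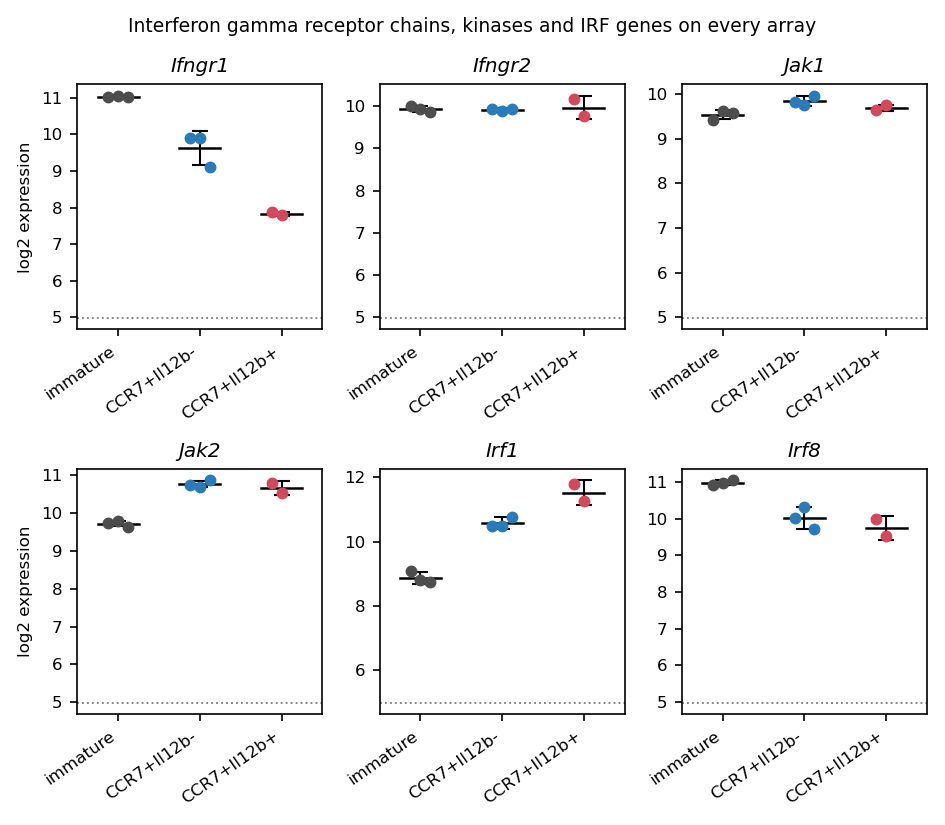
Log2 expression (y axis, a separate scale for each gene) of the receptor chains Ifngr1 and Ifngr2, the kinases Jak1 and Jak2 and the factors Irf1 and Irf8, with 1 point per array, bars at the group mean and SD, and the background mark of 4.98 dotted. Ifngr1 steps down and Irf1 steps up over the 3 groups, and the values of Ifngr2 overlap.

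Other interferon-responsive lists were mixed in CCR7+Il12b+ against immature cells. In CCR7+Il12b- against immature cells 0 of the type I interferon-stimulated genes were lower (0 to 1 under the alternatives). The count of type I interferon signalling genes lower there was also 0 (0 to 1). Beside the counts of these lists stand the shares of all genes, 9.10% higher and 14.5% lower in CCR7+Il12b- against immature cells. These shares were 14.1% and 17.9% in CCR7+Il12b+ against immature cells, and 2.61% and 4.47% between the matured fractions. Of 16 other interferon gamma targets 5 were higher and 3 lower in CCR7+Il12b- cells (3 to 5 and 2 to 4 under the alternatives) and 4 higher and 6 lower in CCR7+Il12b+ cells (4 and 4 to 6). The 5 became 3 without immature replicate 2 or 3 or without CCR7+Il12b- replicate 2 or 3. Between the matured fractions 4 were lower (4 to 5) and 12 did not pass. Nlrc5, the class I transactivator, rose by 2.53 ± 0.15 and 3.02 ± 0.17, while Ciita, the class II transactivator, fell by 2.57 ± 0.17 in CCR7+Il12b+ cells. Cd274, which encodes the checkpoint ligand PD-L1, rose by 2.42 ± 0.14 and 2.32 ± 0.15. Slamf8, a SLAM family receptor, fell by 1.23 ± 0.26 and 3.66 ± 0.30 against immature cells, and the matured fractions differed by -2.43 ± 0.30. Cxcl9, a chemokine for CXCR3+ cells, fell by 1.33 ± 0.12 in that last step and differed by 0.04 ± 0.11 between CCR7+Il12b- and immature cells. Of 21 measured type I interferon-stimulated genes 13 were higher in CCR7+Il12b- cells (12 to 15) and 9 higher and 3 lower in CCR7+Il12b+ cells (6 to 10 and 1 to 4). The 3 lower became 1 without CCR7+Il12b+ replicate 2. Between the matured fractions 1 was higher, Herc6, and 4 were lower (0 to 1 and 3 to 5), and Herc6 did not pass without CCR7+Il12b- replicate 2 or CCR7+Il12b+ replicate 1. Herc6, a ubiquitin ligase family member, rose by 1.78 ± 0.14 and 2.56 ± 0.16, and Rsad2, the antiviral protein viperin, by 1.65 ± 0.20 and 1.72 ± 0.22. Oasl1, of the oligoadenylate synthetase-like proteins, rose by 1.34 ± 0.13 and 1.84 ± 0.14. From CCR7+Il12b- to CCR7+Il12b+ cells Ifi27l2a fell by 1.57 ± 0.26, and Oasl2 by 0.77 ± 0.15, a change that did not pass without either CCR7+Il12b+ replicate. The 10 genes of type I interferon signalling gave 2 higher in CCR7+Il12b- cells (2 to 3) and 3 higher and 1 lower in CCR7+Il12b+ cells (2 to 4 and 1 to 2; 2 lower without CCR7+Il12b+ replicate 1). Usp18, a brake on the type I receptor, rose by 1.40 ± 0.12 and 1.74 ± 0.14, and Irf7, a factor that amplifies type I interferon, fell by 1.74 ± 0.17 in CCR7+Il12b+ cells. Tyk2, a kinase of the type I receptor, rose by 1.10 ± 0.10 and 1.53 ± 0.12. Between the matured fractions 1 gene of this list was higher, Tyk2 (0.43 ± 0.12, adjusted p = 0.0497, which did not pass without any 1 of the 8 samples), and 1 lower, Irf7 (-1.71 ± 0.17). Stat2 and Irf9 did not pass against immature cells, with differences from immature cells of 0.03 and 0.13 in CCR7+Il12b- and -0.06 and -0.31 in CCR7+Il12b+ cells, where Irf9 passed without CCR7+Il12b+ replicate 1 (-0.48, adjusted p = 0.0353).

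Genes that work with GBPs and IRGs were counted last. Among all genes 9.10% were higher and 14.5% lower in CCR7+Il12b- against immature cells. In CCR7+Il12b+ against immature cells these shares were 14.1% and 17.9%, and between the matured fractions 2.61% and 4.47%. The inflammasome list, in which GBPs act upstream, had 2 of 9 higher and 3 lower in CCR7+Il12b- cells and 2 higher and 6 lower in CCR7+Il12b+ cells (2 to 3 and 4 to 6). Between the matured fractions 4 were lower and 5 did not pass, and 2 were lower without CCR7+Il12b+ replicate 1. Casp4, the sensor of cytosolic lipopolysaccharide, rose by 2.37 ± 0.14 and 2.68 ± 0.16, and Gsdmd, the pore former, by 1.32 ± 0.12 and 1.75 ± 0.14. Nlrp3, the sensor that Gbp5 is known to act with, fell by 1.23 ± 0.22 in CCR7+Il12b- cells and at least 4.26-fold in CCR7+Il12b+ cells. Of the cytokines processed by inflammasomes, Il18 fell by 1.64 ± 0.13 in CCR7+Il12b- cells and at least 5.45-fold in CCR7+Il12b+ cells, and Il1b fell by 1.68 ± 0.21 in CCR7+Il12b+ cells. The autophagy conjugation list, whose proteins guide IRGs and GBPs to vacuoles, had 4 of 15 higher and 2 lower in CCR7+Il12b- cells (2 to 5 and 2 to 3) and 4 and 3 in CCR7+Il12b+ cells (4 to 5 and 2 to 5). The 4 higher in CCR7+Il12b- cells became 2 without immature replicate 1 or CCR7+Il12b- replicate 2, and the 3 lower in CCR7+Il12b+ cells became 5 without CCR7+Il12b+ replicate 1. Between the matured fractions 2 were higher, Gabarapl1 and Sqstm1, a count that ran from 0, without CCR7+Il12b- replicate 2 or CCR7+Il12b+ replicate 1, to 4, without CCR7+Il12b+ replicate 2, and was 1 without CCR7+Il12b- replicate 1 and without either of immature replicates 2 and 3. The list also holds Sqstm1, Trim21, Traf6 and Rabgef1, which are not part of the autophagy conjugation machinery. Sqstm1, a receptor for ubiquitin-coated cargo, rose by 1.52 ± 0.11 and 2.00 ± 0.12, and the ubiquitin ligase Traf6 by 1.24 ± 0.15 and 1.78 ± 0.17. Gabarapl1, of the ATG8 family, rose by 1.44 ± 0.18 in CCR7+Il12b+ cells, and Atg3, a conjugating enzyme, fell by 0.73 ± 0.14 in CCR7+Il12b- cells. Of 6 genes of protein prenylation, which anchors some GBPs, and of the processing steps after it, 3 were lower in CCR7+Il12b- cells. These were the farnesyltransferase subunits Fnta (-0.51 ± 0.15) and Fntb (-0.40 ± 0.12, below the mark) and the protease Zmpste24 (-0.61 ± 0.19). That count ran from 0 to 3 under the alternatives and was 0 without immature replicate 2, immature replicate 3 or CCR7+Il12b- replicate 3. In CCR7+Il12b+ cells 1 was lower, Zmpste24. Leaving out CCR7+Il12b+ replicate 2, or immature replicate 2 or 3, made that count 0, and leaving out immature replicate 1 made it 2.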

How the data were processed

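Expression was measured on 1 array per sorted sample, and no raw intensities were used. Each deposited number is a log2 level of 1 probe set. The submitters' processing notes name RMA and oligo, without versions or a genome build. RMA scales the arrays to one another (medians over the genes used from 5.45 to 5.56), so an overall gain or loss of RNA may not show. Of 35556 rows 21789 carried exactly 1 gene symbol in the platform annotation, 1621 several and 12146 none; 21698 were matched to RefSeq (GRCm38.p6) by gene identifier. The row with the highest mean was kept per gene. All 8 samples entered 1 model of 3 group means in limma 3.58.1 (R 4.3.3) with lmFit and eBayes (5 residual and 5.86 prior degrees of freedom), two-sided, with Benjamini-Hochberg adjustment over 19938 genes. The fit was tested on simulated data. The labels do not tie replicates to separate mice; the spread behind each p-value is that of these samples and could be technical. The 5 genes on shared rows were left out.

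Named genes were all analysed members, the up to 3 genes of each list with the largest change that passed in a comparison, a fixed set of interferon pathway genes with Gm12250, and the 5 genes most like Gbp5. Gbp2b and Gbp11 were named after their values were seen. Members and lists were chosen with earlier results of these data known. Where a group mean lay below the background mark, a fold that passed the test is a bound, for which array values of that group under the mark were raised to it. Alternatives were another quantile step, cyclic loess, median centring, 2 filters on dim genes, the mean of a gene's rows, a fit on the compared groups, a replicate block, array weights and leaving out each sample.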

Additional observations from a re-analysis of the deposited data

Results flagged for a closer look

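Irgm1 and Iigp1 stand out because their changes against immature cells differed between the matured fractions. The immature mean cancels in that difference, so it is the comparison of the matured fractions given in the results and no further test. For Irgm1 the change in CCR7+Il12b+ cells minus that in CCR7+Il12b- cells was -1.22 ± 0.18 (adjusted p = 0.00194, limma), and both CCR7+Il12b+ samples lay below all 6 others. For Iigp1 it was -0.78 ± 0.13 (adjusted p = 0.00565, limma), with all 3 CCR7+Il12b- samples above all 5 others.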

How the results depend on the processing

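The 15 differences of Gbp3, Gbp5, Gbp7, Irgm1 and Iigp1 kept their side of the threshold in all 249 refits under the 17 alternatives, and the counts of 3, 3 and 2 genes that passed stayed the same. Gbp7 could not be refitted under either filter on dim genes, which removes it. Some refits could not move the estimates. These genes have 1 row each, so the mean of a gene's rows left their differences as they were. Leaving out a sample of the group not compared did so too. Adjusted p for the step between the matured fractions ran up to 0.0300 for Irgm1 and 0.0479 for Iigp1. Correlations of deviations between same-numbered samples ran from -0.17 to 0.22, and between the matured fractions they were 0.22 and 0.09. The deviations of the 2 CCR7+Il12b+ samples mirror each other, so these correlations cannot settle whether same-numbered samples were paired. With a replicate block 3, 3 and 2 genes passed. Over all genes, 1412 passed between the matured fractions, against 925 without CCR7+Il12b- replicate 1, 786 without CCR7+Il12b- replicate 2 and 712 without CCR7+Il12b+ replicate 1; it was 1771 without CCR7+Il12b- replicate 3, and 1618 and 1630 with a second quantile step and cyclic loess. With 2 CCR7+Il12b+ samples, leaving out 1 assumes that the other varies like the rest. Signal near background limits Gbp3, Gbp7 and Iigp1. Counts over the other lists and the alternatives for their genes were added after seeing the data.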
